A study of Mus musculus with 24 samples.

Results

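This account compares mRNAs on few ribosomes with mRNAs on none in mouse fibroblasts of the established NIH/3T3 line that had been kept with halofuginone for 24 h. Halofuginone blocks the proline site of Eprs, the enzyme that charges tRNAs with glutamate and proline. The 6 libraries were 3 of the light polysome pool (mRNAs carrying a ribosome, a pair of ribosomes, or a few) and 3 of the ribosome-free pool (free mRNA-protein particles and single ribosomal subunits), out of 24 libraries in the series. They were chosen by treatment and gradient fractions in the column headers, and each light library was paired with the ribosome-free library of the same column tag. The 3 tags are called set A (a header without a replicate number), rep2 and rep4. The same pools from cells given PBS, the vehicle, gave 6 further libraries for comparison. The sample labels give 100 nM halofuginone at 37 °C for every treated sample, whereas the headers of the set A columns give 50 nM. Set A pooled gradient fractions 1 to 2 as ribosome-free and 3 to 6 as light, while rep2 and rep4 pooled fractions 1 to 5 and 6 to 13. NIH/3T3 is a single immortal line, and the series describes the cultures as biological triplicates.

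An mRNA enters the light pool once a ribosome has joined it, and moves down the gradient as more ribosomes follow. A long reading frame can hold more ribosomes than a short one, so position in a gradient reflects length as well as initiation. RNAs that are not translated by cytosolic ribosomes, such as nuclear noncoding RNAs and the RNAs made inside mitochondria, are expected near the top of the gradient together with free particles, although any RNA in a large complex can sediment further. Amino acid shortage is known to activate Gcn2, which lowers initiation on most mRNAs and favours the mRNA of the transcription factor Atf4.

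Depth lay between 10.5 and 17.5 megacounts in the ribosome-free and between 14.5 and 21.6 in the light libraries with halofuginone. Mitochondrially encoded genes took 11.1 to 32.9% of the counts in the ribosome-free and 2.45 to 7.71% in the light libraries. The fibroblast markers were all measured (8 of 8 tested), while of the markers of other cell types 0 of 5 epithelial, 2 of 6 leukocyte, 1 of 5 endothelial and 2 of 5 adipocyte genes had enough counts to be tested.

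The libraries tagged rep4 went partly against their label. Car6, a secreted carbonic anhydrase, had 354 and 72.8 CPM (read counts scaled to a common library size, here over the 12 libraries of both treatments) in the set A and rep2 ribosome-free libraries with halofuginone, against 1.32 and 0.609 with vehicle. In the rep4 ribosome-free pool it had 10.3 CPM in the library labelled halofuginone and 9.34 in the library labelled vehicle. In the light pool of rep4 it had 503 and 9.50 CPM. Trib3, a target of Atf4, had 62.2 and 61.7 CPM in the rep4 ribosome-free libraries labelled halofuginone and vehicle, and 380 and 126 CPM in the light ones. It did not separate the treatments in rep2 either, with 14.0 and 17.8 CPM in the ribosome-free and 28.8 and 35.8 CPM in the light pool. Col6a1, a chain of type VI collagen, had 683 and 668 CPM in the ribosome-free and 39.4 and 307 CPM in the light pool of rep4.

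Whole lists also differed between the pools of rep4. In the list of the Atf4 pathway and amino acid shortage, with 38 genes measured, the median log2 ratio of halofuginone to vehicle was 0.89 in set A, -0.05 in rep2 and 0.03 in rep4 of the ribosome-free pool, and 0.84, -0.18 and 1.31 in the light pool. For 22 genes of cholesterol synthesis it was -0.88, -0.32 and -0.03 in the ribosome-free pool and -1.09, -0.50 and -2.59 in the light pool. The halofuginone and vehicle libraries of the rep4 ribosome-free pool were not copies of each other, since their counts differed by a mean chi-square of 20.6 per gene. Between the rep4 light libraries 3162 of 13109 genes (24.1%) lay more than 2-fold apart, against 563 (4.29%) for rep2 and 726 (5.54%) for set A. Values of the rep4 pair therefore set a light library that differs strongly from vehicle against a ribosome-free library that differs little from it in these lists. Below, rep4 values are those of the libraries so labelled, and values without this pair are given beside results that move with it.

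**Figure D1:**
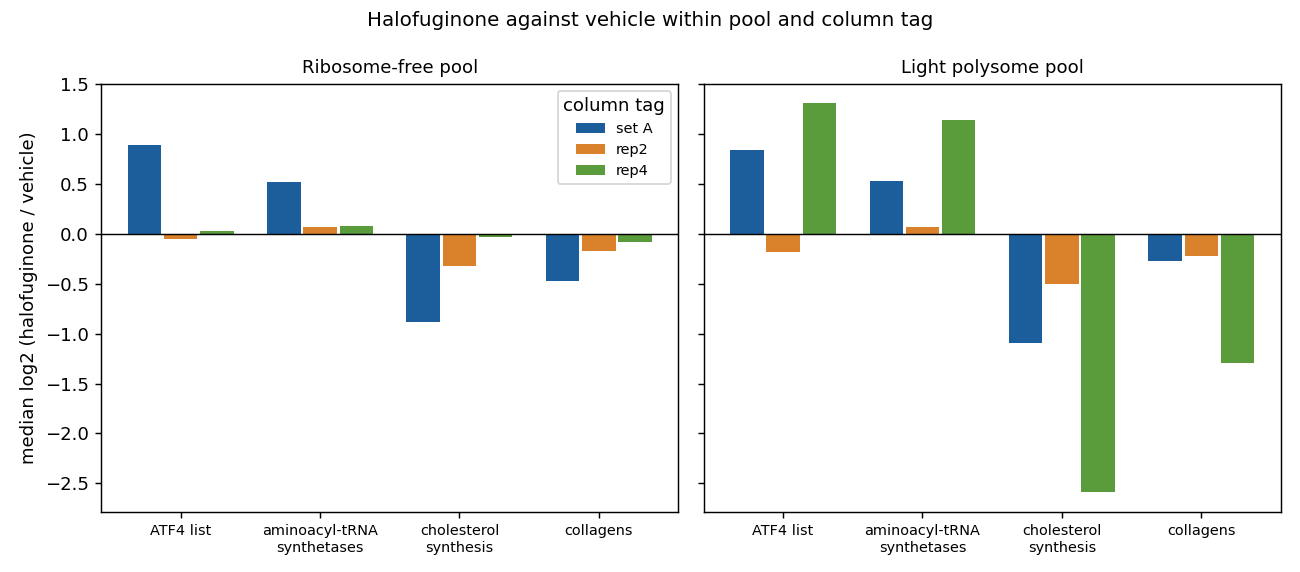
Median log2 ratio of halofuginone to vehicle (y axis) for 4 gene lists (x axis) in the ribosome-free pool (left) and the light pool (right), with 1 bar per column tag. In the rep4 ribosome-free pool the bars lie between -0.08 and 0.08, and in the rep4 light pool they run from -2.59 for cholesterol synthesis to 1.31 for the Atf4 list.

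In the paired comparison 12356 genes were tested. Of these, 315 (2.55%) were higher and 138 (1.12%) lower in the light than in the ribosome-free pool (edgeR's quasi-likelihood test, Benjamini-Hochberg adjusted p under 0.05). Without the rep4 pair the counts were 329 (2.60%) and 139 (1.10%) of 12655 genes, and 231 of the 315 and 100 of the 138 were called again. Without set A the counts were 7 and 21, and without rep2 they were 0 and 4, where 1697 genes had an unadjusted p under 0.05. With the pairing ignored they were 4 and 12. DESeq2 called 615 higher and 509 lower, so that 54.7% of its calls were higher, against 69.5% here. Among the 453 called genes, 452 moved the same way in all 3 pairs and 411 (90.7%) had pools that did not overlap, against 5266 (42.6%) and 2594 of all genes tested.

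The called groups differed in kind. The 315 higher genes held 307 protein-coding genes, beside 10980 of all 12356 genes tested. Their median coding length was 3470 bases against 1398 for all genes tested. A reading frame of at least 2000 bases was found in 247 of the 306 with a coding length, beside 3328 of 10964 among all genes tested. The 138 lower genes held 56 protein-coding genes, 39 pseudogenes, 38 other noncoding RNAs and 5 genes without an annotated type, and 13 of them came from the mitochondrial genome. All genes tested held 407 pseudogenes and 300 genes without an annotated type. Also among them were Myh6, Mb, Actc1 and Mybpc3, genes of heart muscle, and Alb, a gene of the liver, of which Actc1 lost its call without rep4 (adjusted p = 0.0822) and Mybpc3 was not tested there. The summed level of 10 heart genes was 48.2 and 156 CPM, here by library total, in the ribosome-free libraries of rep2 and rep4, 17.0 and 47.7 in their light libraries, and under 1 in both set A libraries, and the part of such RNA in other results was not tested. Because each library is scaled to its own counts, all values are relative to the other RNAs of that pool, and in such bulk samples a change in some cells and a smaller change in all cells cannot be told apart. Scaled by library totals alone, the median of all genes was 0.60 on the log2 scale in place of -0.02, and 2041 genes were called higher and 86 lower, or 96.0% higher.

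The largest rises among well-measured genes were in long mRNAs of diverse roles. Lrp5, a co-receptor of Wnt ligands, had 53.5, 26.7 and 68.5 CPM in the light and 6.85, 4.60 and 7.99 CPM in the ribosome-free libraries of set A, rep2 and rep4. The pools did not overlap, and the log2 fold was 2.87 ± 0.36 (SE, 3 pairs, adjusted p = 0.00234). Without rep4 it was 2.80 (adjusted p = 1.64e-05). Lrp5 lies on chromosome 19 at 3584828-3686564 of GRCm38, on the minus strand.

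Zfp646, a zinc finger gene (chromosome 7, 127876221-127885996, plus strand), had 32.0, 27.3 and 31.4 CPM in light and 5.06, 5.05 and 3.20 CPM in ribosome-free libraries, a log2 fold of 2.79 ± 0.37 (SE, adjusted p = 0.00348). Pdcd11, a factor of ribosomal RNA processing (chromosome 19, 47090768-47131865, plus strand), had 32.8, 23.2 and 32.4 CPM against 8.40, 3.48 and 2.40. Every light library lay above every ribosome-free library for both genes. Heatr1, another protein of early ribosome assembly, had 20.7, 17.8 and 40.5 CPM against 6.30, 6.17 and 1.70. Its log2 fold was 2.47 ± 0.55 with all pairs and 1.66 without rep4.

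Abcc1, an export pump for glutathione conjugates, had 101, 80.0 and 166 CPM in light and 16.3, 26.3 and 12.3 CPM in ribosome-free libraries (log2 fold 2.66 ± 0.48, adjusted p = 0.0143). Piezo1, a stretch-gated channel, had 269, 96.8 and 578 CPM against 65.7, 38.4 and 20.9. Its log2 fold of 2.64 ± 0.66 (adjusted p = 0.0472) leaned on rep4, where the log2 ratio was 4.78, and was 1.72 without it (adjusted p = 0.0466). Pcdhgc3, a clustered protocadherin, had 50.9, 20.8 and 9.79 CPM against 8.25, 6.06 and 0.899.

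Ankrd52, a regulatory subunit of a protein phosphatase, had 31.6, 15.6 and 13.4 CPM in light and 5.52, 2.81 and 1.40 CPM in ribosome-free libraries. Map3k3, a kinase of stress signalling, had 52.5, 23.6 and 25.9 CPM against 10.3, 4.26 and 3.20. Uhmk1, a kinase with an RNA-binding motif, had 39.3, 56.9 and 61.1 CPM against 8.40, 10.8 and 7.29. These 3 genes had log2 folds of 2.72, 2.60 and 2.56, and Map3k3 and Uhmk1 were the exceptions in length, with reading frames of 1881 and 1260 bases. The locus of Mir6236, annotated as a miRNA hairpin, had the largest fold of the named genes, 3.40 ± 0.77 (adjusted p = 0.0331), but its pairs ranged from 1.94 and 2.59 to 6.09 in rep4. Without rep4 its log2 fold was 2.31.

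Lif, a short mRNA for a secreted cytokine, also rose, with 13.2, 15.0 and 9.67 CPM against 3.50, 5.05 and 3.50 (log2 fold 1.65 ± 0.38, adjusted p = 0.0340). It was the only gene of 16 tested cytokines and chemokines that was called, beside 2.55% of all genes called higher. The list leaned the other way, with 11 of 16 below 0 and a median of -0.42 (-0.02 without rep4). The reading frame of Lif has 612 bases, far below the median of the genes called higher.

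**Figure D2:**
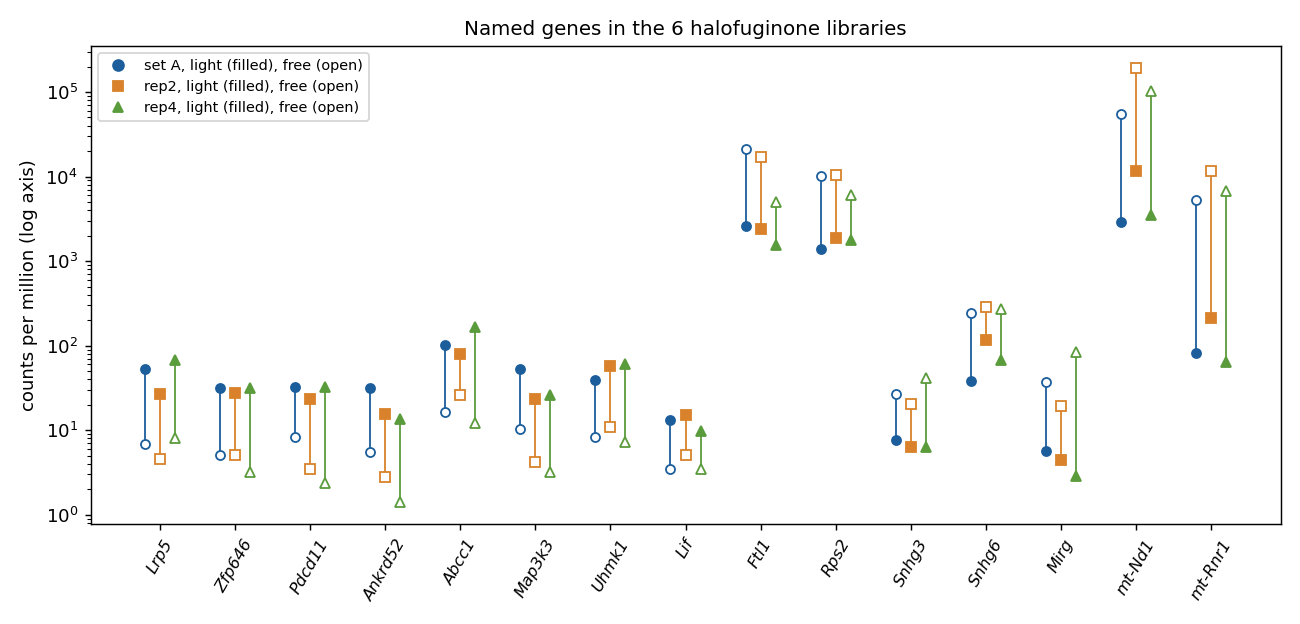
CPM on a log axis for 15 named genes (x axis) in the 6 halofuginone libraries. Filled symbols are light, open symbols ribosome-free libraries, joined within a column tag. The 8 genes on the left lie higher in light and the 7 on the right lower, with no overlap between pools in any of the 15.

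Coding length ordered the whole distribution, not only the called genes. The longest annotated reading frame of each gene was taken from GENCODE M21, which may not be the form used in these cells. The median log2 fold was -0.38 for 186 genes under 300 bases, -0.06 for 4188 genes of 1000 to 2000 bases, 0.32 for 2542 genes of 2000 to 4000 and 0.63 for 786 genes of 4000 bases or more. The share called higher was 0.538%, 1.10%, 5.43% and 13.9% in these classes. Scaled by library totals the medians were 0.25, 0.56, 0.95 and 1.25, so the sign of the shorter classes turned but the order did not. The classes of 300 to 600 and 600 to 1000 bases both had a median of -0.12, and of 0.50 by library totals. Their shares called higher were 0.170% and 0.479%. Across genes, coding length and log2 fold had a Spearman correlation of 0.29, given as a description because genes of a library are not independent.

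The pairs did not share the same shape. In set A the median log2 ratio climbed from -1.25 under 300 bases to 0.90 at 4000 or more. In rep2 it was 0.39 for the shortest class, -0.10 at 1000 to 2000 and 0.50 for the longest, and in rep4 it was -0.28, -0.10 and 0.40. All pairs thus had their highest median in the longest class, but short mRNAs as a whole were low in light only in set A. At 300 to 600 and 600 to 1000 bases the medians were -0.84 and -0.47 in set A. They were 0.30 and -0.05 in rep2 and 0.16 and 0.14 in rep4, where only the shortest of these classes lay below 0. Vehicle pairs had -1.26, 0.07 and 0.16 for the shortest and 0.98, 0.60 and 0.51 for the longest class. The climb of set A was thus as wide in cells that received no drug, while the shortest class of rep4 lay above 0 with vehicle and below 0 with halofuginone. Set A also differs from the other tags in the fractions pooled, and the part of this in its shape was not tested.

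**Figure D3:**
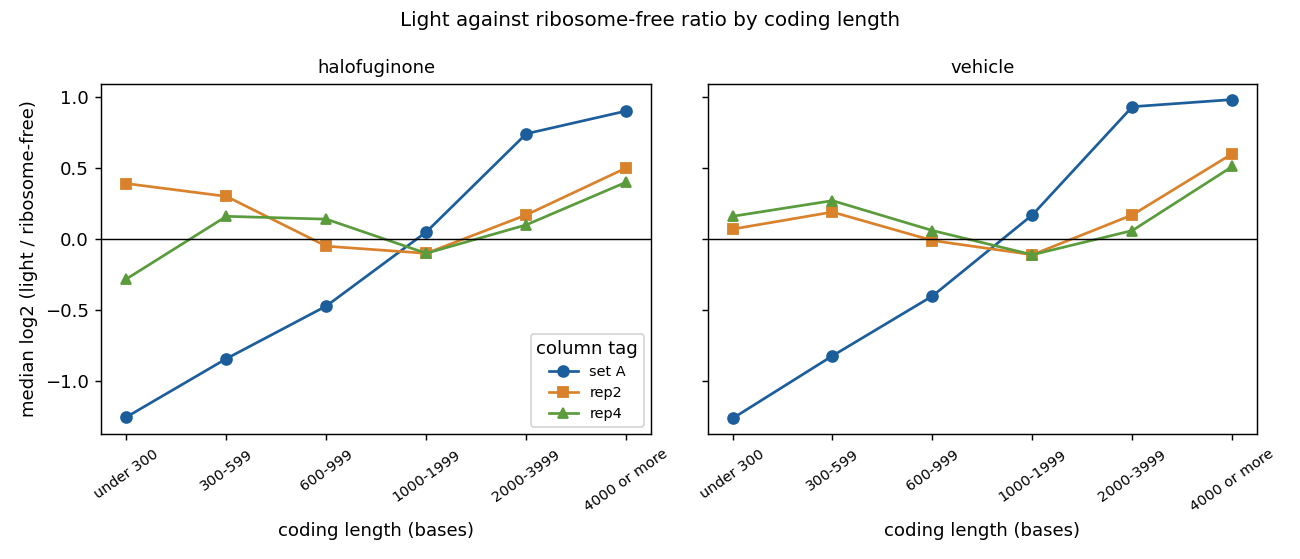
Median log2 ratio of light to ribosome-free (y axis) by class of coding length (x axis) for each column tag, with halofuginone (left) and vehicle (right). Set A climbs from -1.25 to 0.90 with halofuginone, whereas rep2 and rep4 are lowest or near lowest at 1000 to 2000 bases and end at 0.50 and 0.40.

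Base composition at the third codon position gave a further order within a class of length. Genes were split into quintiles by the percentage of codons that end in G or C (GC3), with bounds at 48.6, 56.6, 63.3 and 69.4%. Among genes with 4000 coding bases or more, the median log2 fold was 0.22 in the lowest and 0.89 in the highest quintile, and 4.94% of 243 against 29.7% of 64 genes were called higher. Without rep4 the medians were 0.36 and 1.14, and 4.12% and 25.4% were called. Among genes of 2000 to 4000 bases the medians were -0.08 and 0.71, with 0.498% of 602 and 8.87% of 372 genes called higher, and without rep4 the medians were 0.01 and 0.84. Among genes under 300 bases, where 1 gene was called, they were -0.58 and -0.26.

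All 3 pairs showed this order. For genes of 2000 to 4000 bases, the median log2 ratio rose from the lowest to the highest GC3 quintile from 0.41 to 1.07 in set A, from -0.34 to 0.52 in rep2 and from -0.26 to 0.42 in rep4. In vehicle cells it rose from 0.59 to 1.18, from -0.64 to 0.70 and from -0.69 to 0.63. The G+C content of the whole transcript gave a like order, with 2 of 136 genes called higher in its lowest and 41 of 164 in its highest quintile among genes of 4000 bases or more. G+C can also affect how well a fragment is sequenced, which was not tested.

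Stretches of 60 coding bases from the middle of a reading frame are shown as examples of both ends of this scale. They come from GENCODE transcripts of GRCm38 and are printed in frame from the 5′ side, with G or C at the third codon position in capitals. Lrp5 is shown as the largest rise of a coding gene among those named. The others have the highest mean CPM among candidate long reading frames of the highest (Piezo1, Myh9) and lowest GC3 quintile (Col1a1, Ahnak). A stretch was taken only where the exon at the middle of the frame holds at least 60 coding bases. The candidates were 64 genes in the highest and 227 of 243 in the lowest quintile. Naca was left out, since its longest annotated frame is a muscle form.
Lrp5: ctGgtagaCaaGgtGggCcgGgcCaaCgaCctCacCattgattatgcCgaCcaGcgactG
Piezo1: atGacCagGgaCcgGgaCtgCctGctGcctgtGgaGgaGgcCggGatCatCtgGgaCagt
Myh9: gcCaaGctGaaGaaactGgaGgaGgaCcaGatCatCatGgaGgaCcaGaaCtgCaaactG
Col1a1: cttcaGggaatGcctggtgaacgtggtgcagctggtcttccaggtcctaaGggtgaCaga
Ahnak: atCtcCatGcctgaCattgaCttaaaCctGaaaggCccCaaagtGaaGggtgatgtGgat

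Of the 20 codons in each stretch, 15 end in G or C in Lrp5 (chr19:3614275-3614334, minus strand), 18 in Piezo1 (chr8:122490956-122491015, minus) and 18 in Myh9 (chr15:77774563-77774622, minus). Only 4 do so in Col1a1 (chr11:94945859-94945918, plus), while the stretch of Ahnak (chr19:9009808-9009867, plus) has 12, more than the 48.2% of its whole reading frame, and so does not look like its quintile. The log2 folds of light over ribosome-free were 2.87, 2.64 and 0.45 ± 0.41 for Lrp5, Piezo1 and the non-muscle myosin Myh9, and 0.01 ± 0.53 and -0.57 ± 0.40 for Col1a1 and the giant scaffold protein Ahnak. Myh9, Col1a1 and Ahnak did not pass the test, so the quintile describes a shift of a class and not of each member. Codons of the form CCN, which are read by proline tRNAs, ordered the classes of length in different directions. The median of genes in the top 10% of their share was above that of the others at 4000 bases or more (0.73 and 0.58, with 20 of 111 and 89 of 675 genes called higher) and at 2000 to 4000 (0.55 and 0.30, with 19 of 287 and 119 of 2255). It was below it under 300 bases, at -0.80 for 14 genes and -0.35 for 172. Vehicle cells had the same directions, with medians of 0.88 and 0.65 at 4000 bases or more and 0.71 and 0.31 at 2000 to 4000. Under 300 bases the vehicle medians were -0.41 and -0.27.

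**Figure D4:**
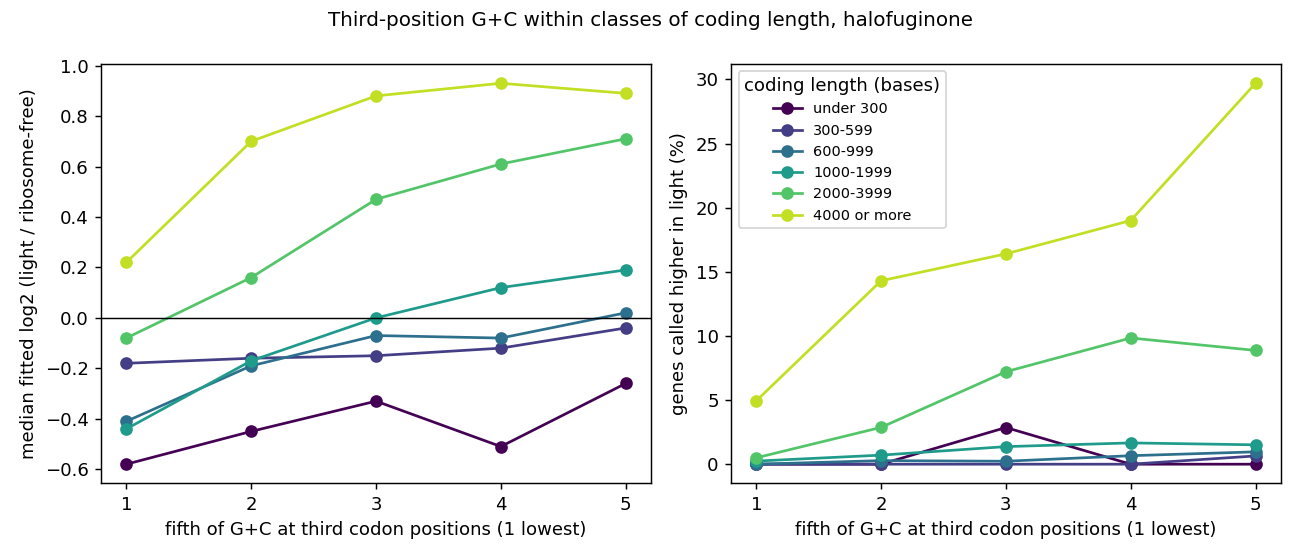
Median fitted log2 fold of light over ribosome-free (left) and percentage of genes called higher in light (right) by GC3 quintile (x axis, 1 lowest), with 1 line per class of coding length. The share called higher in the longest class runs from 4.94% to 29.7%.

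Of the 12 named genes with the largest falls, 9 were RNAs made in mitochondria. These are transcribed from the mitochondrial genome and translated, where they code for protein, by the ribosomes of the organelle. Of 9 tested mRNAs of that genome 6 fell, beside 1.12% of all genes called lower. Among the 6 was mt-Atp6, with 0.0358, 1.57 and 0 CPM in light and 0.934, 179 and 3.40 CPM in ribosome-free libraries. It passed the expression filter through its ribosome-free libraries, so its fall was the likely outcome and adds no evidence to the count. The list median was -3.02 (pairs -2.09, -3.44 and -3.51) against -0.02 for all genes tested. mt-Nd1, a subunit of complex I, had 2903, 11687 and 3512 CPM in light and 54389, 194052 and 102540 CPM in ribosome-free libraries, a log2 fold of -4.38 ± 0.61 (adjusted p = 0.00425). The ribosomal RNA mt-Rnr1 had 82.8, 210 and 63.4 CPM against 5224, 11760 and 6702 (log2 fold -6.17 ± 0.62, adjusted p = 0.000562). mt-Nd4 had 2337, 6029 and 2422 CPM against 18807, 39949 and 23425. mt-Nd2 and mt-Nd5 had log2 folds of -3.86 and -3.02, and mt-Rnr2 of -5.34.

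Members of the mitochondrial list were not alike. mt-Co1, a subunit of complex IV, had 4836, 12947 and 2529 CPM in light and 9438, 18201 and 5640 CPM in ribosome-free libraries, a log2 fold of -0.87 ± 0.51 that did not pass the test (adjusted p = 0.361). mt-Cytb had 8699, 23146 and 9477 CPM against 35943, 67096 and 54051 and a log2 fold of -2.03 ± 0.55 (adjusted p = 0.0605). mt-Co1 was thus lower in the light library of each pair, by far less than mt-Nd1.

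Mitochondrial tRNAs also fell, 5 of the 6 tested, beside 1.12% of all genes called lower. The 3 named ones are printed because they overlap or adjoin an mRNA (mt-Nd2, mt-Nd1 and mt-Cytb), so that a read from a joined transcript could be counted for either gene, and the strand setting of the counting is not given in the sources used here. The sequences are those of GENCODE on GRCm38, in lower case throughout.
mt-Tw: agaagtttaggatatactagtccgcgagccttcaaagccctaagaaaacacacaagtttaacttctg
mt-Ti: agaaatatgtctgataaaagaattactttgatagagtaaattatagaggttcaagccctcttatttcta
mt-Tt: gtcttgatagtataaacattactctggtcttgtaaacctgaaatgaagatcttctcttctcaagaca

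mt-Tw (chrM:4950-5016, plus strand), the tRNA for tryptophan, starts before the end of mt-Nd2 at 4951, and mt-Ti (chrM:3706-3774, plus), the tRNA for isoleucine, before the end of mt-Nd1 at 3707. mt-Tt (chrM:15289-15355, plus) is the tRNA for threonine and follows mt-Cytb, which did not pass the test. mt-Tw had 0.393, 0.679 and 0.116 CPM in light and 19.3, 51.1 and 22.9 CPM in ribosome-free libraries, a log2 fold of -6.25 ± 0.48 (adjusted p = 7.80e-05). mt-Ti had 0.322, 1.93 and 0.753 CPM against 3.03, 83.2 and 74.9, and mt-Tt 0.715, 0.992 and 0.753 CPM against 28.7, 34.7 and 7.09. The light values rest on few reads, and mt-Tw and mt-Ti passed the expression filter through their ribosome-free libraries. A fall was thus the likely outcome for them, and the count of tRNAs called is no evidence by itself. The libraries were made with a kit that selects polyadenylated RNA, so these levels stand for only part of the tRNA pool.

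Noncoding RNAs of the nucleus were the next group. Mirg, a long RNA of the imprinted Dlk1-Dio3 locus that hosts miRNAs (chromosome 12, 109729764-109749460, plus strand), had 5.72, 4.44 and 2.90 CPM in light and 37.1, 19.6 and 83.9 CPM in ribosome-free libraries (log2 fold -3.19 ± 0.51, adjusted p = 0.00934). Without rep4 it was -2.39. Of 14 tested nuclear and imprinted noncoding RNAs 2 were called lower, beside 1.12% of all genes tested, with a list median of -1.21 (-0.88 without rep4). The other was Rpph1, the RNA of RNase P, with 0.0522 to 0.0715 CPM in light and up to 11.4 CPM in ribosome-free libraries. Rpph1 passed the expression filter through its ribosome-free libraries, and no fold is given for it at such low counts. Rian and H19, also imprinted, had log2 folds of -1.91 and -2.89 with adjusted p = 0.0572 and 0.0521. Meg3, of the same imprinted locus as Mirg, went the other way, at 0.55 and at 1.54 without rep4. Malat1 had 0.07 and Tug1 1.28, and none of these 3 passed the test. In the list 4 genes lay above 0 and 10 below.

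Host RNAs of small nucleolar RNAs, whose introns give rise to guide RNAs for ribosomal RNA modification, were low in light as a list. Of 15 tested 3 fell, beside 1.12% of all genes called lower, and 14 lay below 0. The list median was -1.29 (pairs -1.78, -0.64 and -0.81) and was -0.67 by library totals. Snhg3 had 7.62, 6.37 and 6.31 CPM in light and 26.5, 20.6 and 41.1 CPM in ribosome-free libraries, and fell by 2.06 on the log2 scale (SE 0.36, adjusted p = 0.0143). Snhg6 had 38.4, 116 and 67.6 CPM against 241, 285 and 273. Snhg4 fell by 1.71, and lost its call without rep4 (adjusted p = 0.0958). Gas5, the best known of these hosts, had 570, 1089 and 1298 CPM against 2087, 1702 and 1114, with overlapping pools and a log2 fold of -0.76 ± 0.55 (adjusted p = 0.469).

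By annotated type, 187 long intergenic RNAs had a median log2 fold of -0.69 and 407 pseudogenes of -0.79, against 0.02 for 10980 protein-coding genes. By library totals these medians were -0.06, -0.17 and 0.64. Of the pseudogenes 9.58% were called lower, against 1.12% of all genes tested. Many pseudogenes are copies of abundant short mRNAs, and how reads with several matches were counted is not given in the sources used here, so their values cannot be told apart from those of the parent genes.

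Ferritin and ribosomal protein mRNAs are both long known for control at initiation. The list of iron-controlled and ferritin mRNAs and that of ribosomal proteins gave 1 called member each, of 7 and 78 tested. Of all genes 1.12% were called lower. Without rep4 the first list had 2 genes called lower and the second 1, beside 1.10% of all genes. Ftl1, the light chain of ferritin, whose translation is held back by iron regulatory proteins, had 2579, 2427 and 1560 CPM in light and 21338, 17204 and 5042 CPM in ribosome-free libraries (log2 fold -2.53 ± 0.56, adjusted p = 0.0311). Rps2, a protein of the small ribosomal subunit, had 1397, 1860 and 1795 CPM against 10115, 10405 and 5993 (log2 fold -2.36 ± 0.54, adjusted p = 0.0340). The pools of both genes did not overlap, which was a condition of their choice, and both genes have processed pseudogenes that could share their reads. For the ribosomal proteins this count is near that of all genes.

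As a list the ribosomal proteins, whose mRNAs start with a pyrimidine tract that ties them to growth signals, had a median log2 fold of -0.68, and 73 of 78 lay below 0. The pairs gave -1.44, -0.33 and -0.21, so the shift was widest in set A, and by library totals the median was -0.06. The median reading frame of the list has 457.5 bases, near the lengths that were lowest in set A. Vehicle cells had medians of -1.48, -0.30 and -0.06. The 20 translation factors with the same kind of tract had a median of -0.46 and no called member, and their most reduced gene by p was Eif3e with a log2 fold of -1.31 ± 0.49 (adjusted p = 0.155).

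Other translation genes were not called. Eif4g1, the scaffold of the cap-binding complex, had 297, 182 and 245 CPM in light and 118, 70.3 and 40.3 CPM in ribosome-free libraries, a log2 fold of 1.76 ± 0.46 that missed the threshold (adjusted p = 0.0548). Mitochondrial ribosomal proteins and nuclear-encoded respiratory subunits had no called member among 77 and 75 tested. Their medians of -0.14 and -0.02 (-0.45 and -0.26 without rep4) joined pairs of opposite sign, -1.12, 0.16 and 0.63 for the first and -1.21, 0.59 and 0.54 for the second list.

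**Figure D5:**
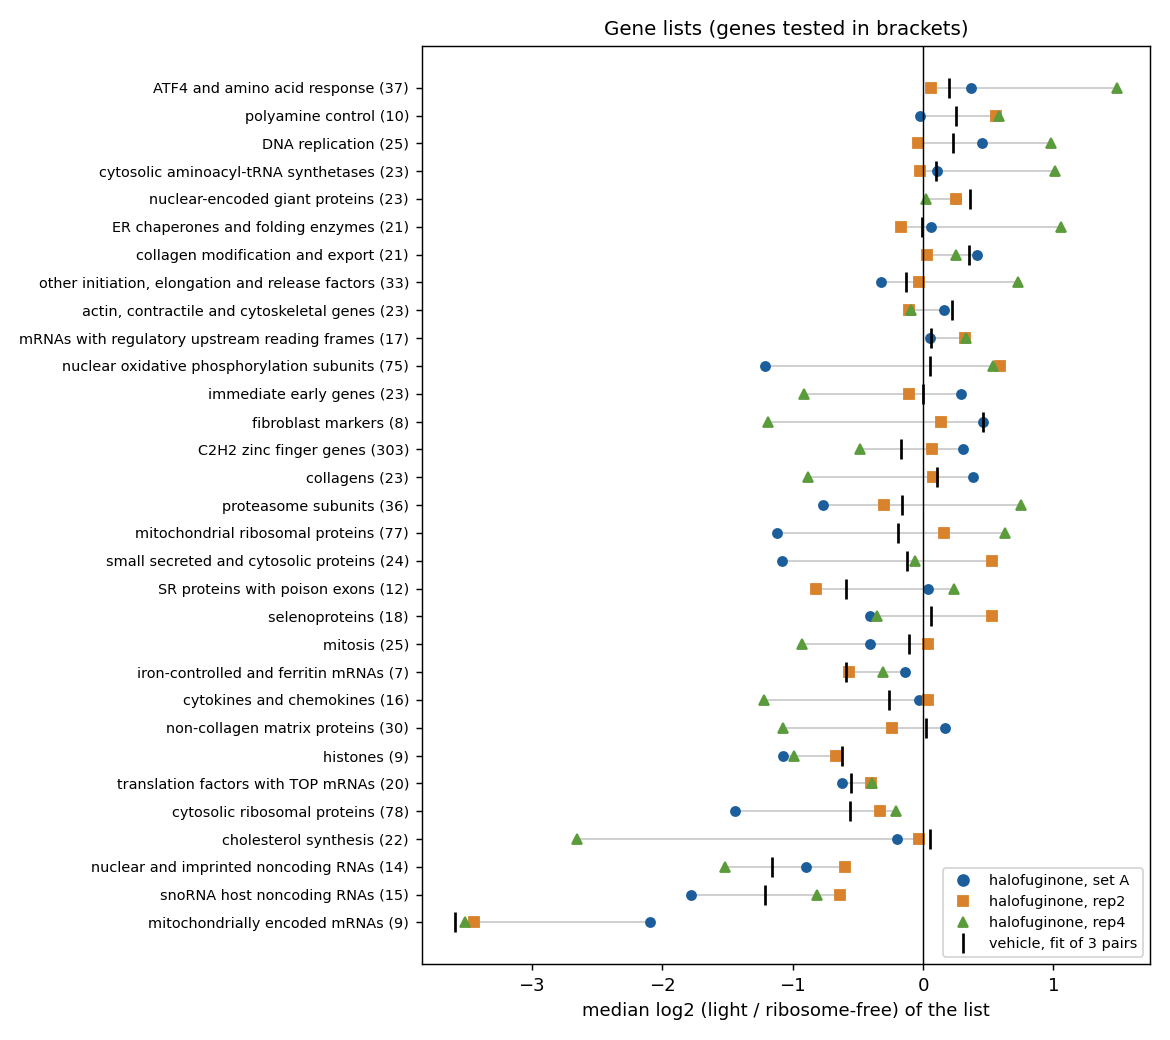
Median log2 ratio of light to ribosome-free (x axis) of each gene list with at least 7 tested genes (y axis), for the 3 halofuginone pairs, with the vehicle fit as a bar. The rep4 symbol stands farthest from the others for cholesterol synthesis at -2.65 and the Atf4 list at 1.49, whereas set A does so for the ribosomal proteins at -1.44.

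Genes of the response to halofuginone itself had no called member, and their values turned on rep4. For the Atf4 list, 37 of whose genes were tested, the median log2 fold was 0.62 with pairs at 0.37, 0.06 and 1.49, and it was 0.13 without rep4. Atf4, whose upstream reading frames delay its translation until initiation slows, had 1507, 1432 and 1191 CPM in light and 1715, 1647 and 2565 CPM in ribosome-free libraries. Every light value lay below every ribosome-free value, but the log2 fold of -0.50 ± 0.49 did not pass (adjusted p = 0.616) and was -0.16 without rep4. Ddit3, a partner of Atf4 in prolonged stress, had 329, 133 and 998 CPM against 476, 89.0 and 234. Trib3 had 153, 28.2 and 369 CPM against 95.3, 13.8 and 61.5, with a log2 fold of 1.42 ± 0.48 (adjusted p = 0.119) that was 0.89 without rep4. Asns, asparagine synthetase, had 197, 55.3 and 217 CPM against 241, 57.0 and 76.0, so that its sign came from rep4.

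Eprs, the target of the drug, had 86.4, 54.9 and 166 CPM in light and 46.7, 39.8 and 45.9 CPM in ribosome-free libraries. The pools did not overlap, the log2 fold was 1.07 ± 0.41 (adjusted p = 0.168), and without rep4 it was 0.71 (adjusted p = 0.537). Over the 23 synthetases that charge tRNAs in the cytosol, the median was 0.32, with pairs at 0.11, -0.02 and 1.01, and it was 0.05 without rep4. None of the 23 was called.

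Collagens, the proline-rich proteins for which halofuginone is best known as an inhibitor, had a median log2 fold of -0.11 over 23 tested genes, from pairs at 0.38, 0.08 and -0.88, and 0.31 without rep4. Col1a1 had 497, 122 and 232 CPM in light and 266, 94.4 and 572 CPM in ribosome-free libraries, and Col1a2 735, 449 and 634 CPM against 568, 499 and 1167. Col3a1 had 60.0, 9.61 and 20.2 CPM against 37.7, 7.97 and 80.3. In set A and rep2 the light library of Col1a1 and Col3a1 was the higher of the pair, and in rep4 the lower. Their log2 folds were 0.01 ± 0.53, -0.22 ± 0.48 and -0.32 ± 0.50 for Col1a1, Col1a2 and Col3a1, and 0.68, 0.15 and 0.52 without rep4.

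Among 30 tested matrix proteins other than collagens, Lamb1, a chain of laminin, was the only call, beside 2.55% of all genes called higher. It had 64.1, 41.6 and 83.8 CPM in light and 28.1, 16.9 and 8.69 CPM in ribosome-free libraries (log2 fold 1.88 ± 0.45, adjusted p = 0.0414), and lost the call without rep4 (1.28, adjusted p = 0.130). Fn1, fibronectin, had 1186, 353 and 719 CPM against 829, 367 and 180. Ltbp2, a microfibril protein of the latent TGF-beta binding family, had 79.3, 26.2 and 8.45 CPM against 50.2, 19.2 and 21.2. Acta2, the smooth muscle actin of activated fibroblasts, had 2292, 28.6 and 104 CPM against 6338, 34.7 and 199. It was lower in light in each pair, while its level differed more between tags than between pools. Sulf1, a sulfatase of heparan sulfate, was at most 3.68 CPM in the 6 halofuginone libraries.

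Cholesterol synthesis gave the widest split between pairs. The median of its 22 tested genes was -0.93, with -0.20 in set A, -0.03 in rep2 and -2.65 in rep4, and -0.05 without rep4. Msmo1, a sterol oxidase, had 83.5, 198 and 41.3 CPM in light and 139, 413 and 468 CPM in ribosome-free libraries. No gene of the list was called, and the halofuginone to vehicle medians of the rep4 libraries given above, -0.03 in the ribosome-free and -2.59 in the light pool, lie beside this value.

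Zinc finger genes of the C2H2 type had 8 calls among 303 tested, all higher in light, with a list median of -0.11 (0.20 without rep4), beside 2.55% of all genes called higher. Histones had 1 call among 9 tested, Hist1h4i, beside 1.12% of all genes called lower. Hist1h4i had 2.25, 1.78 and 1.80 CPM against 8.79, 4.38 and 8.29 and lost the call without rep4 (adjusted p = 0.0867). Mitosis genes had no call among 25, with a median of -0.32 (-0.14 without rep4), and DNA replication genes none among 25, with a median of 0.38 (0.25 without rep4).

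The same comparison in vehicle cells called 665 genes higher (5.28%) and 237 lower (1.88%) of 12594, or 902 in all, which became 6681 without set A and 162 without rep2. Of the 314 halofuginone calls that were higher and tested there, all had the same sign and 280 were called, and of 131 that were lower all had the same sign and 86 were called. For all 12191 genes tested in both treatments the same sign was seen in 82.7%. Lrp5 had log2 folds of 2.87 and 2.14 with halofuginone and vehicle, Zfp646 of 2.79 and 3.08, Ftl1 of -2.53 and -2.56, and mt-Nd1 of -4.38 and -4.79.

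The difference between treatments was tested in 1 model of 12 libraries with the 6 gradients as blocks. Of 13109 genes 0 (0%) were called by edgeR, with 62 at an unadjusted p under 0.05, and 0 by DESeq2, with 88. For Lrp5 the difference was 0.77 ± 0.37 on the log2 scale, for Trib3 0.58 ± 0.54, for Col1a1 -0.74 ± 0.62 and for Eprs 0.33 ± 0.43, all with an adjusted p of 1.000. The cholesterol list had a median difference of -0.94 and the Atf4 list of 0.38, both resting on the rep4 libraries.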

How the data were processed

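The authors deposited a table of raw counts by gene symbol that covers all 24 libraries. Tools named in the submitters' processing notes are STAR 2.5.2b, featureCounts of Subread 1.5.0p3 and Trimmomatic 0.36, on GRCm38.p5, with the strand setting and the handling of reads with several matches not given in the sources used here. Per the labels, the library kit was TruSeq Stranded mRNA. Columns were placed in groups by treatment and fraction numbers in their headers, and 0 columns belonged to other samples.

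The 6 halofuginone libraries were fitted in edgeR 4.0.16 (R 4.3.3; quasi-likelihood test) from the deposited counts, with TMM scaling, the default expression filter, the column tag as a block and a Benjamini-Hochberg threshold of 0.05. The vehicle libraries were fitted likewise, and the difference between treatments in 12 libraries with gradients as blocks. Libraries were paired by column tag as a rule of this work, the pools of a tag being taken as fractions of the same gradient. Deviations from pool means correlated at 0.509, 0.482 and 0.144 across genes for set A, rep2 and rep4 with halofuginone. With vehicle the values were 0.485, 0.674 and 0.528. The highest value between different tags was 0.157, for rep4 ribosome-free and rep2 light with halofuginone. This is above the value of the rep4 pair, so the correlations do not bear out that pair. Deviations from a shared mean are tied to each other, which by itself lowers the values between tags. No label ties a tag to a replicate number. Values in CPM are TMM-scaled within the 6 libraries unless said otherwise, and log2 ratios of single pairs use a prior count of 2.

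Named genes were 12 fixed genes, the 12 largest called changes in each direction with at least 20 CPM in a pool, all 3 pairs in 1 direction and no overlap (predicted genes and pseudogenes left out), and for each list up to 2 called members (by size of change) or, with none called, the gene of smallest p. Some named genes are not reported here. Of the 35 lists 30 are not markers of cell types. The members and lists were chosen with earlier results of these data known. Of 49568 symbols 47240 were found in GENCODE M21 (GRCm38), and 10964 tested genes had a complete coding sequence there. The test was tried on simulated data first. Alternatives were fits without the block, without 1 tag, with DESeq2 1.42.0, with other scalings and with other filters.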

Additional observations from a re-analysis of the deposited data

How the results depend on the processing

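With 3 pairs, the smallest log2 fold among called genes was 1.31 and the smallest fall -1.42, so a gene that was not called may still have changed. The counts of called genes moved with most settings, and the cause was not tested. With halofuginone (453 called, 315 higher and 138 lower) 16 were called without the replicate block (4 and 12), and without it and without rep4, an alternative chosen after seeing the data, 2 (0 and 2). Leaving out 1 tag gave 4 to 468 (0 to 329 higher, 4 to 139 lower). DESeq2 called 1124 (615 and 509), library totals 2127 (2041 and 86), no filter 1083 (739 and 344) and the fit of both treatments 954 (708 and 246). Median-of-ratios factors, a stricter filter and the fit without mitochondrially encoded genes stayed within 1.5 times, and a required log2 fold of at least 1 could remove no call, since all lay beyond it. In vehicle cells (902, 665 and 237) the counts were 212 (171 and 41) with no replicate block, 0 (0 and 0) with that and without rep4, 1942 (1109 and 833) by DESeq2, 3657 (3534 and 123) by library totals and 1915 (1308 and 607) with no filter. Leaving out 1 tag gave 162 to 6681 (117 to 3343 higher, 45 to 3338 lower), the highest without set A. The difference between treatments had 0 calls, and 5 (3 and 2) with no filter.

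Signs of uncalled genes turned as follows (log2 fold). By library totals: Atf4 0.13, Col1a2 0.41, Col3a1 0.32, Ltbp2 0.60 and Srsf10 0.00. Leaving out 1 tag: Asns -0.13 to 0.74, Col1a2 -0.51 to 0.15, Col3a1 -0.90 to 0.52, Ltbp2 -0.43 to 0.59 and Sulf1 -1.17 to 0.35, each with the sign turned without rep4. With no replicate block: Col1a1 -0.13 and Ltbp2 0.33, and without rep4 as well Ddit3 -0.22, Asns -0.17, Col1a2 0.20, Col3a1 0.68, Ltbp2 0.67 and Sulf1 0.35. Col1a1, at 0.01, also gave -0.46 without set A, -0.19 without rep2, -0.03 by DESeq2, -0.03 with median-of-ratios factors and -0.01 with a stricter filter. Ltbp2 gave 0.07 with no filter.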

Other observations

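RNAs of heart muscle and liver were present in the rep2 and rep4 gradients of these fibroblasts and nearly absent from set A. The lists (10 heart and 7 liver genes) were written after their values were seen. Summed over the heart genes, among them Myh6 (a cardiac myosin), Mb (myoglobin) and Actc1 (cardiac actin), the level was 0.801, 48.2 and 156 CPM, by library total, in the ribosome-free libraries of set A, rep2 and rep4 with halofuginone, and 0.371, 17.0 and 47.7 in the light ones. With vehicle it was 0.806, 50.1 and 144 in the ribosome-free and 0.146, 14.9 and 45.4 in the light pool, and in the heavy pool 0.237, 21.2 and 87.0 with halofuginone and 0.133, 16.9 and 69.4 with vehicle. In the rep2 and rep4 libraries of all pools and both treatments every gene of both lists had counts, while in set A between 3 and 8 of the 10 heart genes had none. Alb, the serum albumin made in liver, had 14.6 and 14.6 CPM in the rep2 and rep4 ribosome-free libraries with halofuginone, 4.45 and 3.58 in the light ones and 0 in set A.

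These RNAs reach the calls given above. Myh6, Mb, Actc1 and Mybpc3 of 9 tested heart genes and Alb of 3 tested liver genes were among the 138 called lower in light. Of all genes 1.12% were called lower. The log2 fold was -2.26 ± 0.45 (SE, edgeR adjusted p = 0.0196) for Myh6 and -2.37 ± 0.50 (adjusted p = 0.0290) for Alb. Without rep4 Actc1 lost its call (adjusted p = 0.0822) and Mybpc3 was not tested. All 12 tested genes of the lists lay below 0, but the lists were written with values known, so this is no independent support. Their levels in rep2 and rep4 were alike between treatments, and where this RNA came from was not tested.

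Other genes lower in light were chosen after their values were seen. Peg3, an imprinted zinc finger gene, had a mean of 7.72 CPM in light and 50.3 in ribosome-free libraries (log2 fold -2.68 ± 0.66, adjusted p = 0.0436). Pbrm1, a subunit of a chromatin remodelling complex, had 16.5 and 76.5, and Lbr, the lamin B receptor, 31.6 and 115.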
